A study of Mus musculus with 6 samples.

Results

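Ighv segments are the variable gene segments of the mouse immunoglobulin heavy chain locus, and counts on them were found in libraries of mouse cells sorted as retinal ganglion cells (RGCs), which send the output of the retina to the brain. The segments described here were selected on counts: every row of the count table whose symbol starts with Ighv and a digit and that holds at least 5 counts summed over the 6 libraries. The table has 55573 rows, of which 185 are Ighv segments, 75 of them with any count and 52 with at least 5. These 52 hold 4823 counts. All 52 are annotated as functional variable segments, although 70 of the 185 rows are annotated as pseudogenes. Just inside the minimum were 3 segments with 5 counts (Ighv14-2, Ighv5-15 and Ighv9-1) and 3 with 6, and just outside it were 4 with 4 counts and 2 with 3. The 23 rows with some counts below the minimum hold 44 counts together. The minimum was set on the same libraries that are compared here, so a low segment could become a member through 1 group alone.

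All mice were C57BL/6 and carried floxed alleles of both Myh9 and Myh10, which encode nonmuscle myosin heavy chains. The vector AAV2 was injected into the eye 2 weeks before the cells were collected, with GFP in the animals labelled WT (3 libraries) and with Cre recombinase in those labelled dKO (3 libraries). The labels therefore use WT for a floxed, vector-injected control and give neither the promoter of the vector nor the age of the mice. Total RNA of sorted cells from 3 retinas of 3 different mice, pooled, went into each library, and whether replicates of a group share mice is not given, so each p-value reflects only how far the libraries of a group scatter, and that scatter may be technical.

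An antibody heavy chain gene is assembled in developing B cells by joining 1 variable (V), 1 diversity (D) and 1 joining (J) segment in front of the constant genes. A B cell and its descendants, including the plasma cells that secrete antibody, keep the joined segment, so a large clone carries the same V segment in all of its cells. The V segment encodes most of the antigen-binding domain. Segments are named by a family number, shared by segments of similar sequence, and a position number. The retina lies behind the blood-retina barrier, and neurons are not known to rearrange this locus.

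The sequences of 6 segments are shown as examples, because they show how little separates a segment from its relatives. Ighv1-52 overlapped in usage between the groups. Other segments with large differences in usage, such as Ighv1-53 and Ighv1-9, are not shown. They are the coding strand of the second exon from its 12th base, which leaves out the end of the leader, as annotated by GENCODE M21 on GRCm38. The segments lie on the minus strand of chromosome 12 at chr12:113597446-113597741 (Ighv5-4), chr12:114140692-114140985 (Ighv9-3), chr12:114391712-114392010 (Ighv6-3), chr12:114434788-114435087 (Ighv6-6), chr12:113769850-113770142 (Ighv2-9-1) and chr12:115145487-115145780 (Ighv1-52). Capitals mark the bases that differ from the most similar other Ighv segment. Here and below, the closest relative was sought only among segments not annotated as pseudogenes.
Ighv5-4: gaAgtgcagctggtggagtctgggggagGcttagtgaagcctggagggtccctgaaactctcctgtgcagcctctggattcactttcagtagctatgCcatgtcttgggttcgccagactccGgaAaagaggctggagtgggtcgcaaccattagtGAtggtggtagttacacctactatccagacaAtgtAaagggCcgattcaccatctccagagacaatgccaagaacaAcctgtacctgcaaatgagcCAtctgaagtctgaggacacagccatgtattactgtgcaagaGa
Ighv9-3: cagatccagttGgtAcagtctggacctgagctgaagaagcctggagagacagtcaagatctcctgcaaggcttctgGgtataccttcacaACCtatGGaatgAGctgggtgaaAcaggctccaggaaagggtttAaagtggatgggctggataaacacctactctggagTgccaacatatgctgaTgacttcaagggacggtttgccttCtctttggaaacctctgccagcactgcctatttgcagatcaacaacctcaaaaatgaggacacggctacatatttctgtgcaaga
Ighv6-3: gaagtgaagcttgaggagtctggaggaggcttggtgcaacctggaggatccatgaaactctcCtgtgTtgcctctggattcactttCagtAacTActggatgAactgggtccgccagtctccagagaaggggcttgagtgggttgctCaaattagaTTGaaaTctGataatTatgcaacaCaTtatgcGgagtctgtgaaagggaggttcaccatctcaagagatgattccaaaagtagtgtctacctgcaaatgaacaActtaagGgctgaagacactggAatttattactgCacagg
Ighv6-6: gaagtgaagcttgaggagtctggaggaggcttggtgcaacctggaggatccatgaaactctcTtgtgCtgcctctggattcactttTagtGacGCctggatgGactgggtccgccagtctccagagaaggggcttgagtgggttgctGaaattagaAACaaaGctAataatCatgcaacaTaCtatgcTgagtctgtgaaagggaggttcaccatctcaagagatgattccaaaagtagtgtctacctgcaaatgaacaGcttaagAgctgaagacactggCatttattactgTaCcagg
Ighv2-9-1: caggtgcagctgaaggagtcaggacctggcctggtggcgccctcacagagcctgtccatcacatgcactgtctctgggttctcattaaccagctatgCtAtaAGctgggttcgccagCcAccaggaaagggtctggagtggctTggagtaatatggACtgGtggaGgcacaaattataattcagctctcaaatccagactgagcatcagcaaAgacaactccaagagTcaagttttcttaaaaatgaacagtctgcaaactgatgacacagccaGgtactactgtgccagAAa
Ighv1-52: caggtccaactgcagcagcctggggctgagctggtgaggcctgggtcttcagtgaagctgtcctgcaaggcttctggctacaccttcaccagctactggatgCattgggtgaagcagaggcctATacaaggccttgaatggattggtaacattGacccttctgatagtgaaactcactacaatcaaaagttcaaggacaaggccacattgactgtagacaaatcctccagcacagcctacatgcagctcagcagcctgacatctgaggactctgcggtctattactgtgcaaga

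Ighv5-4 and Ighv9-3 were nearly absent from the libraries labelled WT and common in those labelled dKO, and each differs from its closest relative, Ighv5-6 and Ighv9-2, at 14 and 15 bases. Ighv6-3 and Ighv6-6 are each other's closest relative with 92.7% identity, and the first was used mostly in libraries labelled dKO and the second was found in those labelled WT alone. Ighv2-9-1 had no count in the libraries labelled dKO. Ighv1-52, one of the most used segments in both groups, differs from Ighv1-61 at only 4 bases, and Ighv1-61 holds 1 count in the whole table.

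Library totals were 4569880 to 6146226 counts, but a ribosomal RNA row took 89.8% to 92.8% of 5 libraries and 64.2% of dKO replicate 3. Counts outside that row were 346037 to 576060 in 5 libraries and 1636581 in dKO replicate 3, and this depth sets the precision of every segment. The counts of whole Myh9 and Myh10 genes did not separate the groups: Myh9 was at 63.6, 68.4 and 60.7 CPM in the libraries labelled WT and at 63.7, 66.2 and 58.2 in those labelled dKO, and Myh10 at 18.7 ± 2.08 against 18.0 ± 3.39 (SD, n = 3). CPM are counts relative to the TMM-scaled size of the library. The sources used here do not give the floxed exons, so these sums over the gene do not check the deletion. Of 12 RGC markers fixed for the check of the sorted cells, 4 passed the low-count filter. All 12 together took 0.0252% ± 0.00188 of the non-ribosomal counts (those outside the ribosomal RNA row) in the libraries labelled WT. They took 0.0314% ± 0.000322 in those labelled dKO (SD, n = 3 for both). Nefl, a neurofilament subunit, was higher in dKO (log2 fold change 1.63 ± 0.28 with SE, edgeR adjusted p = 3.96e-05), while Thy1, Isl1 and Tubb3 had log2 fold changes of -0.07, -0.65 and 0.86 and did not pass. The RGC transcription factors were sparse, with Pou4f1, Pou4f2 and Pou4f3 at 14, 7 and 1 counts over all libraries. Müller glia markers summed to 2.64% and 2.86% of non-ribosomal counts, and 1 of 9 tested, Gfap, was higher (0.69 ± 0.12, edgeR adjusted p = 4.04e-05). Microglia and macrophage markers summed to 0.457% and 0.509%, and 1 of 11, Lyz2, was higher (0.50 ± 0.10, edgeR adjusted p = 0.000392). T cell markers summed to 0.0402% and 0.0460%, with 0 of 8 called by edgeR (Lck 0.38 ± 0.19, Trbc1 0.46 ± 0.31, adjusted p = 0.414 and 0.595). Their part in the results on Ighv was not tested.

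All Ighv segments together were a small share of each library. The 52 segments held 732, 416 and 646 counts in the 3 WT libraries (replicates 1, 2 and 3, the order used throughout) and 551, 538 and 1940 in the 3 dKO libraries. As a share of non-ribosomal counts this was 0.147%, 0.120% and 0.146% in WT and 0.0956%, 0.119% and 0.119% in dKO. The highest dKO share lay just below the lowest WT share, within its counting interval (Clopper-Pearson, 95%; all intervals here cover counting error only). The group means were 0.138% ± 0.0152 and 0.111% ± 0.0133 (SD, n = 3), a log2 ratio of -0.31. With all counts of the library as the denominator, which includes the ribosomal RNA row, the log2 ratio was 0.89, and -0.15 without dKO replicate 3. On that scale the share was 0.0144%, 0.00879% and 0.0105% in WT and 0.00978%, 0.0105% and 0.0425% in dKO, so dKO replicate 3, with the lowest ribosomal RNA share, was the 1 dKO library above the WT range. In bulk RNA, fewer cells of a type and less RNA per cell cannot be told apart. For each count on a heavy chain constant gene there were 0.251 to 0.268 counts on a V segment in WT and 0.262 to 0.277 in dKO, so V and constant counts moved together across libraries.

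Within that total, usage was spread over many segments in every library. Usage is the share of a library's Ighv counts that a segment takes. The counts behind it make a single value coarse: 40 of 416 counts for Ighv1-9 in WT replicate 2, a usage of 9.62%, have a Clopper-Pearson 95% interval of 6.96% to 12.9%, and 134 of 1940 in dKO replicate 3 have 5.82% to 8.13%. Taken as 3 counts of the library's Ighv total, a count of 0 allows a usage of up to 0.721% in WT replicate 2, the shallowest library, and up to 0.155% in dKO replicate 3. The number of segments with a count was 37, 37 and 41 in WT and 33, 34 and 39 in dKO. The leading segment took only 12% to 13.9% of a library: Ighv1-42 in WT replicates 1 and 2, Ighv3-6 in WT replicate 3 and dKO replicate 2, and Ighv1-53 in dKO replicates 1 and 3. The 5 most used segments took 51.2% to 53.7% in WT and 46.2% to 51.7% in dKO. The effective number of segments (inverse Simpson index, the number of equally used segments that would give the same evenness) was 13.2, 14.0 and 12.8 in WT and 15, 13.9 and 16.1 in dKO. These ranges overlap, and the direction does not hold for richness: thinned to 416 Ighv counts, WT libraries would show 34.2, 37.0 and 37.7 segments and dKO libraries 32.0, 33.2 and 36.3.

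**Figure D1:**
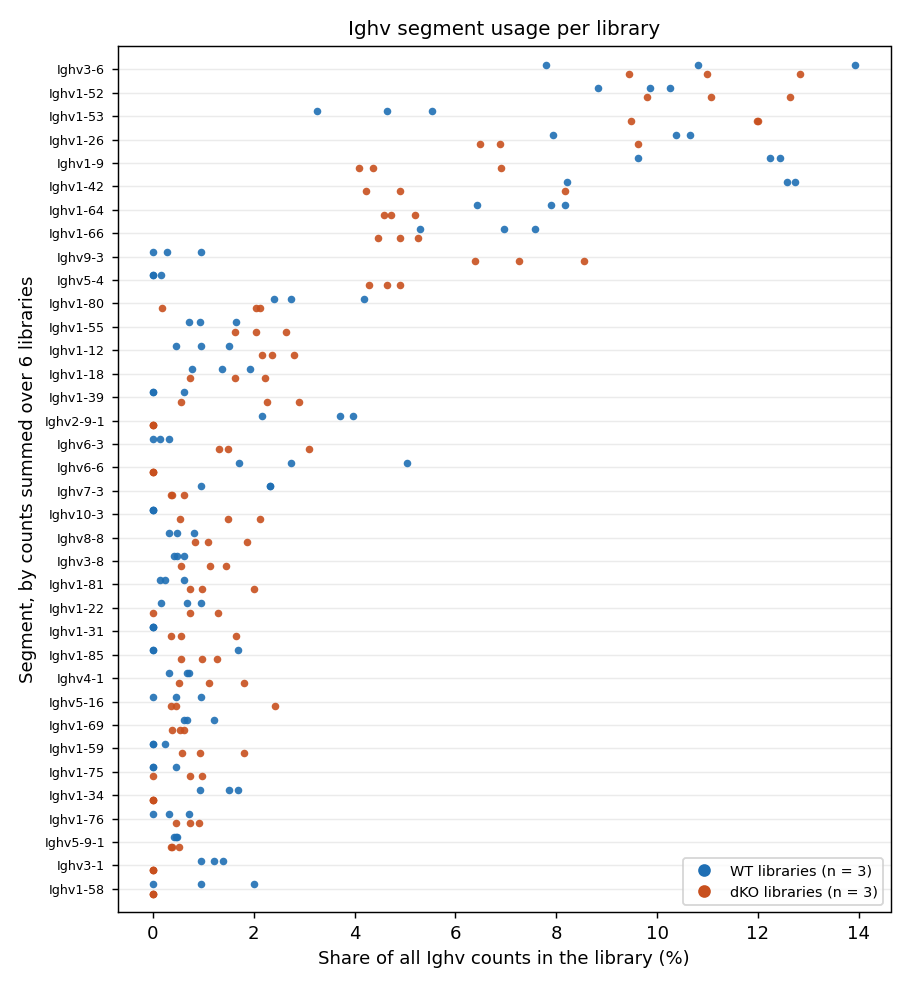
Usage of the Ighv segments with at least 20 summed counts: each point is 1 library, the horizontal axis is the segment's share of that library's Ighv counts (%), and segments are ordered by summed counts. WT and dKO points are interleaved for Ighv3-6 and Ighv1-52 and stand apart for Ighv1-53, Ighv9-3, Ighv5-4, Ighv1-9 and Ighv2-9-1.

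Single segments differed between the groups by more than the total did. On usage, 10 of the 52 segments lay higher in all dKO libraries than in any WT library, 14 lay lower and 28 overlapped. On the share of non-ribosomal counts, 23 of the 52 did not overlap, where 14.7% of all rows with at least 5 counts did not. A test of single segments was possible for 14 of the 52 that passed the low-count filter. The filter asks for enough counts in at least 3 libraries, so a segment such as Ighv5-4 or Ighv9-3 passed through its dKO libraries alone. With edgeR's quasi-likelihood test and Benjamini-Hochberg adjustment over 8444 genes, 3 of the 14 were higher in dKO, 7 were lower and 4 did not pass an adjusted p of 0.05. Over all genes tested 1.92% passed, 0.734% higher and 1.18% lower. The CPM of 11 of the 14 did not overlap between groups, against 17.0% of all genes tested. The median log2 fold change of the 14 was -0.53 and that of all genes tested -0.00072.

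**Figure D2:**
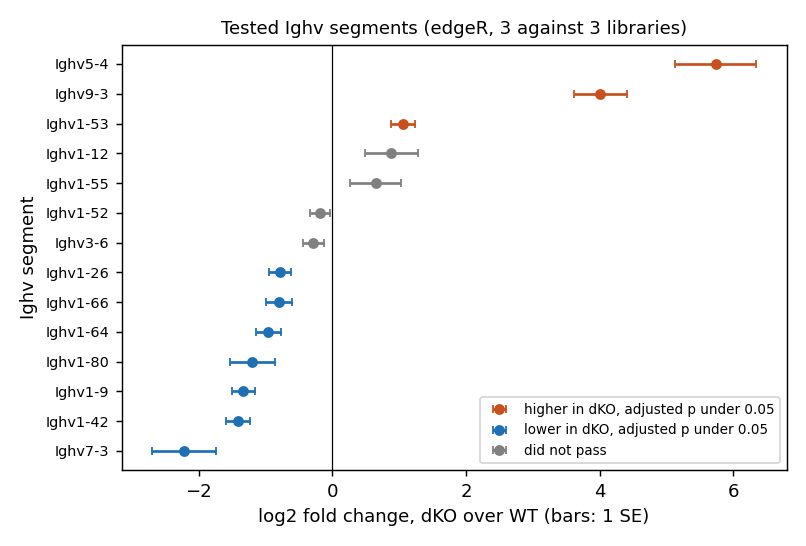
Log2 fold change (dKO over WT, horizontal axis) of the 14 tested Ighv segments with bars of 1 standard error from edgeR, 3 against 3 libraries. Ighv5-4 at 5.73 and Ighv9-3 at 4.01 lie far to the right, Ighv1-53 is the other segment called higher, and 7 segments called lower lie between -0.78 and -2.22. Ighv5-4 and Ighv9-3 passed the low-count filter through their dKO libraries alone.

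Ighv5-4 (ENSMUSG00000095612) showed the largest rise among tested segments. It had 0, 0 and 1 counts in WT and 27, 23 and 90 in dKO. Its usage was 0%, 0% and 0.155% in WT and 4.90%, 4.28% and 4.64% in dKO, so its dKO libraries lay close together and far above WT. The lowest lower bound of the dKO libraries was 2.73% (Clopper-Pearson, 95%). With 1 count in WT, the ratio of pooled usage was 82.9 with an exact 95% interval of 14.6 to 3298. It was 49.1 without WT replicate 1, and at least 17.7 without WT replicate 3. Ighv5-4 entered the test through its dKO libraries alone. The fitted log2 fold change was 5.73 ± 0.61 (SE, edgeR adjusted p = 8.37e-11). It was 5.13 without WT replicate 1, 8.20 without WT replicate 3, which holds the only WT count, and 4.93 with limma-voom.

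Ighv9-3 (ENSMUSG00000096459) had 2, 4 and 0 counts in WT and 40, 46 and 124 in dKO. Its usage rose from 0.273%, 0.962% and 0% to 7.26%, 8.55% and 6.39%, which made it one of the main segments of every dKO library. Ighv9-3 also entered the test through its dKO libraries alone. Its log2 fold change was 4.01 ± 0.39 (SE, edgeR adjusted p = 5.09e-12), and 5.08 without WT replicate 2. Ighv1-53 was already common in WT and rose in dKO: usage was 4.64%, 5.53% and 3.25% in WT and 12%, 9.48% and 12% in dKO. Its level went from 6.69 ± 1.16 to 13.4 ± 1.56 CPM (SD, n = 3), with a log2 fold change of 1.06 ± 0.18 (SE, edgeR adjusted p = 3.46e-05). Together these 3 segments took 4.92%, 6.49% and 3.41% of Ighv counts in WT and 24.1%, 22.3% and 23.0% in dKO.

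The 7 segments called lower include Ighv1-42, which led usage in WT replicates 1 and 2, and Ighv1-9, the second most used in WT replicates 1 and 3. Ighv1-9 (ENSMUSG00000094694) took 12.4%, 9.62% and 12.2% of Ighv counts in WT and 4.36%, 4.09% and 6.91% in dKO. Its level fell from 17.6 ± 4.24 to 6.23 ± 2.21 CPM (SD, n = 3), with a log2 fold change of -1.33 ± 0.17 (SE, edgeR adjusted p = 4.16e-08). Ighv1-42 (ENSMUSG00000094652) took 12.6%, 12.7% and 8.20% in WT and 4.90%, 8.18% and 4.23% in dKO. WT replicate 3 and dKO replicate 2 nearly met in usage. The level of Ighv1-42 fell from 16.8 ± 3.29 to 7.07 ± 3.12 CPM, with a log2 fold change of -1.42 ± 0.18 (SE, edgeR adjusted p = 3.10e-08), and DESeq2 gave an adjusted p of 0.0876.

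Ighv1-64 took 6.42%, 8.17% and 7.89% of Ighv counts in WT and 4.72%, 5.20% and 4.59% in dKO, and its log2 fold change was -0.96 ± 0.19 (SE, edgeR adjusted p = 0.000377). Ighv1-26 and Ighv1-66 fell by less. Ighv1-26 was at 14.9 ± 3.82 CPM in WT and 9.13 ± 0.98 in dKO (SD, n = 3), with an edgeR adjusted p of 0.00139. Its usage overlapped between the groups, at 10.7%, 7.93% and 10.4% against 9.62%, 6.88% and 6.49%. The call did not hold without WT replicate 1 (edgeR adjusted p = 0.0742), without dKO replicate 3 (0.0630) and with DESeq2 (0.0598). Ighv1-66 went from 10.2 ± 2.88 to 5.86 ± 0.32 CPM, with an edgeR adjusted p of 0.00859, which became 0.102 without WT replicate 1, 0.142 without WT replicate 3 and 0.136 with DESeq2.

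The last 2 were low segments. Ighv7-3 had 17, 4 and 15 counts in WT and 2, 2 and 12 in dKO, a log2 fold change of -2.22 ± 0.48 (SE, edgeR adjusted p = 0.00194). It did not pass without WT replicate 1 (edgeR adjusted p = 0.157) or WT replicate 3 (0.0712). With the ribosomal RNA row left out it had no fitted value. Ighv1-80 had 20, 10 and 27 counts in WT and 1, 11 and 41 in dKO, and its log2 fold change of -1.20 ± 0.33 (SE, edgeR adjusted p = 0.0348) came with uneven dKO libraries. It was -1.89 without dKO replicate 3, and it no longer passed without WT replicate 1 (edgeR adjusted p = 0.0942), WT replicate 3 (0.355) or dKO replicate 1 (0.164), with limma-voom (0.129) and with DESeq2. The 7 segments together took 54.1%, 47.1% and 52.8% of Ighv counts in WT and 29.4%, 31.2% and 29.8% in dKO.

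Both segments with the most counts overall lay among the 4 that did not pass. Ighv3-6 took 7.79%, 10.8% and 13.9% of Ighv counts in WT and 9.44%, 12.8% and 11% in dKO, and the groups overlapped. Its log2 fold change was -0.29 ± 0.16 (SE, edgeR adjusted p = 0.459), and 0.033 without WT replicate 3. Ighv1-52 took 10.2%, 9.86% and 8.82% in WT and 11.1%, 12.6% and 9.79% in dKO, with a log2 fold change of -0.18 ± 0.15 (SE, edgeR adjusted p = 0.699). Usage and level differ slightly in direction for both since usage divides by an Ighv total that was lower in dKO. Ighv1-12 and Ighv1-55, at 3 to 12 counts per WT library, also did not pass (log2 fold changes of 0.88 ± 0.40 and 0.65 ± 0.38 with SE, edgeR adjusted p = 0.321 and 0.510). The 4 segments together took 22.6% ± 1.5 of Ighv counts in WT and 26.8% ± 3.09 in dKO (SD, n = 3).

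Beyond differences of degree, 8 of the 52 segments were present in all 3 libraries of one group and at 0 in all 3 of the other: 6 in WT alone and 2 in dKO alone. The segments named in this paragraph were chosen after their values were seen, and none of them passed the low-count filter. Of all rows with at least 5 counts, Ighv included, 0.711% showed such a pattern, and of rows with at least 20 counts 0.0874%. The 2 directions were unequal outside Ighv. Among other rows with at least 5 counts, 3 were found in WT alone and 102 in dKO alone. Among those with at least 20 counts it was 1 and 4. At 20 counts or more, 6 of 36 Ighv segments did, 4 in WT alone and 2 in dKO alone. Ighv2-9-1 had 29, 9 and 24 counts in WT and 0 in each dKO library, and its usage of 3.96%, 2.16% and 3.72% in WT was at least 34.9-fold lower in dKO. The bound takes 3 counts over the pooled Ighv counts of the group as the limit that a count of 0 allows. It takes the usage of the other group as exact. All fold bounds given as "at least" thus leave out that group's counting error, and an exact interval would reach lower. Ighv6-6 had 20, 21 and 11 counts in WT and 0 in dKO, which was at least 29.3-fold lower.

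Ighv1-34 had 11, 7 and 6 counts in WT and Ighv3-1 had 7, 5 and 9, with 0 in dKO for both. Their usage was at least 13.5-fold and 11.8-fold lower in dKO. Ighv3-4 and Ighv1-84 were the remaining segments found in WT alone, each at least 6.19-fold lower. The bounds for the 6 segments found in WT alone rest on the depth of dKO replicate 3, and without it they were 12.5 for Ighv2-9-1, 10.5 for Ighv6-6, 4.86 for Ighv1-34, 4.25 for Ighv3-1 and 2.23 for Ighv3-4 and Ighv1-84. Ighv1-58 had 7, 0 and 13 counts in WT and 0 in dKO. In the other direction, Ighv10-3 had 0 counts in WT and 3, 8 and 41 in dKO, at least 10.3-fold higher, and Ighv1-31 had 0 counts in WT and 2, 3 and 32 in dKO, at least 7.30-fold higher. Most counts of both came from dKO replicate 3, and without it the bounds were 6.04 and 2.75. They were 6.08 and 4.32 without WT replicate 1, and 6.57 and 4.67 without WT replicate 3. The 6 segments found in WT alone took 10.4%, 11.1% and 9.13% of Ighv counts there, and the 2 found in dKO alone took 0.907%, 2.04% and 3.76%.

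Ighv6-3 showed the reverse of its close relative Ighv6-6, whose sequence is printed beside it. Ighv6-3 had 1, 0 and 2 counts in WT and 17, 7 and 29 in dKO, where its usage was 3.09%, 1.30% and 1.49%, and the ratio of pooled usage was 10.5 with an exact 95% interval of 3.39 to 52.4 (20.1 without WT replicate 3). Because of this exchange the Ighv6 family as a whole overlapped between the groups. Only 11 rows of the 12589 with at least 20 counts were split all or none in this way, and 6 of them are Ighv segments. The other 5, also named after their values were seen, are Igkv8-19 and Igkv4-86, which are variable segments of the kappa light chain, and Glra3, Kcnh1 and Ahnak2. Igkv8-19 had 17, 6 and 32 counts in WT and 0 in dKO, and Igkv4-86 had 0 in WT and 9, 13 and 40 in dKO.

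The 38 segments that did not pass the filter held 5 to 79 counts each (median 22.5) and 998 counts together. They took 21.2% ± 2.49 of Ighv counts in WT and 19.9% ± 3.23 in dKO (SD, n = 3). On usage, 6 of them lay higher in all dKO libraries, 8 lay lower and 24 overlapped. Usage has no counterpart over all rows. On the share of non-ribosomal counts, a different measure, 14.7% of all rows with at least 5 counts did not overlap. On that measure 23 of the 52 segments did not overlap. Usage is a share of 1 total, so a rise of some segments lowers the usage of others. Fitted without a low-count filter, 21 of the 75 Ighv rows with any count passed, 7 higher and 14 lower in dKO, where 0.825% of all rows with a count passed. That fit added 11 calls to the 10 above. Higher were Ighv6-3, Ighv1-39, Ighv10-3 and Ighv1-31. Lower were Ighv2-9-1, Ighv6-6, Ighv1-34, Ighv3-1, Ighv1-58, Ighv3-4 and Ighv1-84. All 11 hold all or nearly all of their counts in 1 group, and with no filter that group was enough for them to enter the fit. Ighv1-39 and Ighv1-58 overlapped between the groups in usage and in CPM.

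Comparing whole profiles, libraries of 1 group shared more of their usage than libraries of different groups. The share of usage that 2 libraries have in common is the sum over segments of the smaller of both shares. It was 78.2% to 84.1% for the 3 pairs within WT, 81.6% to 85.1% for the 3 pairs within dKO and 58.7% to 67.1% for the 9 pairs between groups, so the range between groups lay below both ranges within a group. The pairs share libraries, so the values are a description. The same measure over 14407 other genes in the same range of summed counts was 85.0% to 86.2% within WT, 86.8% to 89.4% within dKO and 84.3% to 87.8% between the groups. Kappa variable segments (64 Igkv rows) had 81.5% to 84.8% within WT, 72.7% to 79.9% within dKO and 61.6% to 69.9% between. Replicates of a group still differed by more than counting error, with a chi-square per degree of freedom of 2.07 over 17 segments in WT and 2.89 over 27 in dKO. Between the pooled groups it was 25.9 over 36 segments. This measure grows with the counts compared. Each pool holds more counts than its single libraries, and the sets of segments differ, so the pooled value cannot be set directly against the other 2.

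**Figure D3:**
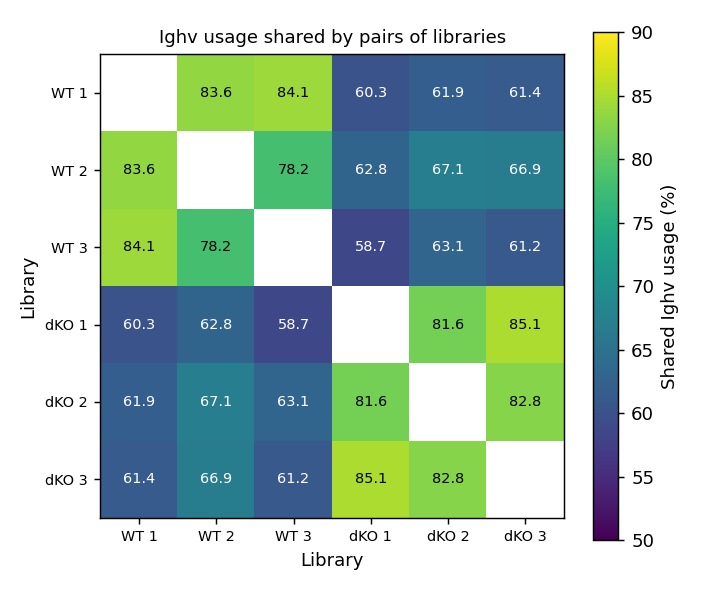
Share of Ighv usage (%) common to each pair of the 6 libraries, WT and dKO replicates 1 to 3 on both axes. Pairs within a group hold 78.2% to 85.1% and pairs between the groups 58.7% to 67.1%.

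By family, the Ighv1 family, the largest in the mouse, led in all libraries. Its 27 segments took 74.2% ± 2.02 of Ighv counts in WT and 67.1% ± 2.56 in dKO (SD, n = 3), with no overlap. The Ighv2 and Ighv7 families also lay lower in dKO, at 3.46% ± 0.918 against 0.304% ± 0.377 and at 1.87% ± 0.786 against 0.451% ± 0.145. The Ighv9 family went from 0.639% ± 0.554 to 7.40% ± 1.09 and the Ighv5 family from 1.55% ± 0.345 to 6.57% ± 0.907, most of it Ighv9-3 and Ighv5-4. Ighv10 was at 0 in WT and at 1.38% ± 0.790 in dKO. The Ighv3, Ighv4, Ighv6, Ighv8 and Ighv14 families overlapped between the groups. With segments summed into families, pairs of libraries between the groups shared 80.3% to 88.4% of usage, so much of the difference between segments lay within families.

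**Figure D4:**
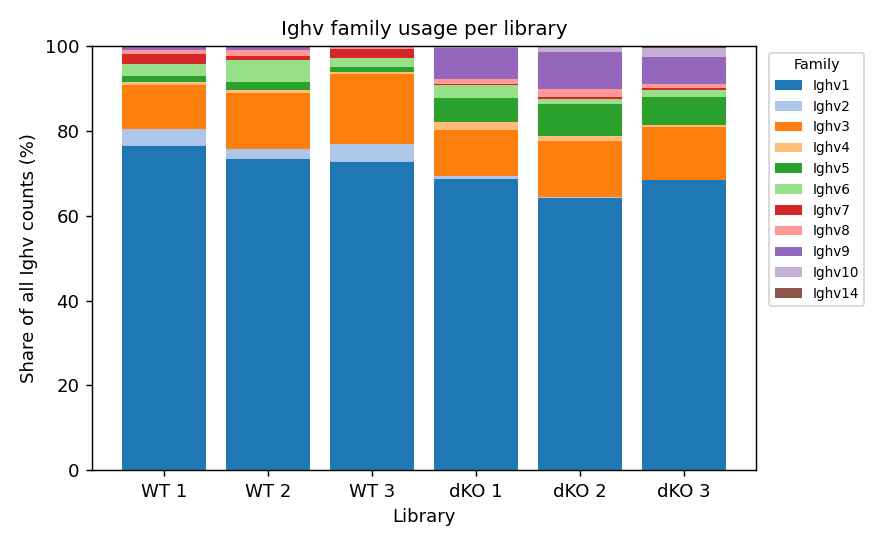
Share of Ighv counts (%) by family, stacked for each of the 6 libraries. Ighv1 fills most of every bar, while Ighv9 and Ighv5 are visible mainly in the 3 dKO bars and Ighv2 in the 3 WT bars.

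Along the locus (chromosome 12, 113572927 to 116010093 in GRCm38) used segments were found from the end near the D segments to the far end. Of the 185 annotated segments, split into 3 equal parts by order, the part nearest to the D segments, which holds 19 of the members, took 21.0% ± 2.7 of Ighv counts in WT and 27.2% ± 2.85 in dKO (SD, n = 3). The middle part, with 14 members, took 30.1% ± 1.25 and 24.7% ± 4.40, and the far part, with 19 members, took 48.8% ± 2.09 and 48.1% ± 1.85. Ighv5-4, near the D end, and Ighv9-3 rose while Ighv2-9-1, which lies between them, had no dKO count.

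**Figure D5:**
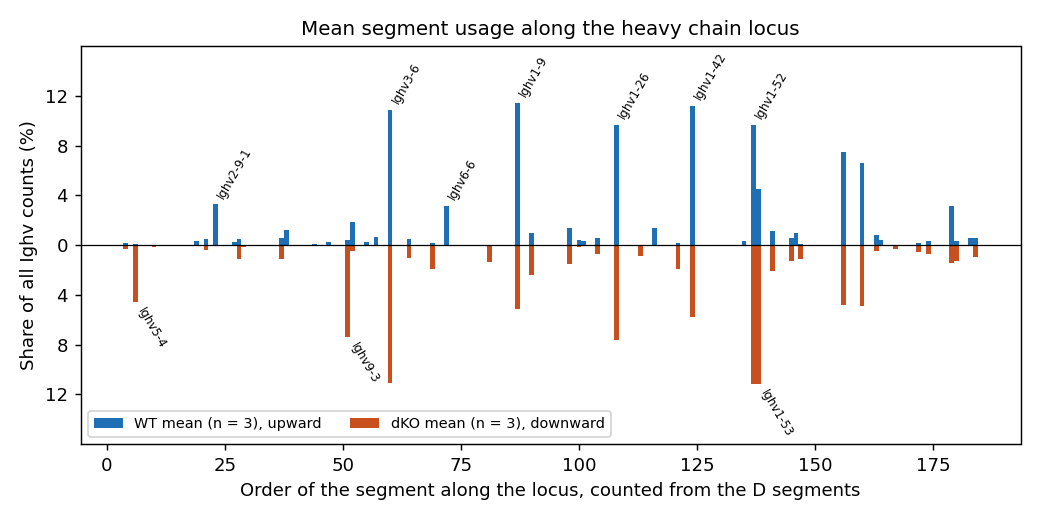
Mean usage of the member segments (% of Ighv counts, n = 3 libraries per group) by their order along the locus from the D segments, WT drawn upward and dKO downward. Tall WT bars such as Ighv1-9 and tall dKO bars such as Ighv1-53 are spread along the locus.

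How well a count belongs to 1 segment depends on the sequence. Of the 52 members, 28 are at least 95% identical to their nearest Ighv segment, pseudogenes left aside. For 6 members, fewer than 50% of their windows of 50 bases are found in no other segment. The windows found in no other segment were 99.3% for Ighv1-9, 96.7% for Ighv3-6, 80.1% for Ighv5-4, 76.8% for Ighv9-3, 82.8% for Ighv2-9-1, 80.8% for Ighv6-6 and 86.0% for Ighv6-3. They were 67.2% for Ighv1-42, 51.0% for Ighv1-26, 42.4% for Ighv1-53 and 32.8% for Ighv1-52. Of the segments named above, Ighv1-84 was also below 50%, at 41.7%, and the lowest of all members was Ighv1-72 at 7.49%. Counts of such segments are less certain. The sources used here give neither the read length nor how reads with several matches were counted. V segments of B cells can also carry somatic mutations, which were not measured here.

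The other antibody genes were measured with the segments. Of 6 tested heavy chain constant genes, which are shared by all clones of a class, 0 were higher and 2 were lower: Ighg2b, the IgG2b constant gene, at 139 ± 35.1 CPM in WT and 75.2 ± 4.99 in dKO (log2 fold change -0.89 ± 0.11 with SE), and Igha, the IgA constant gene, at 104 ± 23.9 and 68.8 ± 11.4 (-0.64 ± 0.11). No D or J segment passed the filter, and 19 of the 20 D segments were at 0. Of 13 tested kappa variable segments 2 were higher and 6 lower. Igkv4-63 and Igkv6-15 rose by 3.49 and 2.80 on the log2 scale, while Igkv6-14 and Igkv14-111 had log2 fold changes of -2.23 and -1.07. The kappa constant gene Igkc was lower (-0.54 ± 0.10), as were Iglc1 (-2.21 ± 0.28) and Iglv1 (-0.98 ± 0.25), both lambda light chain genes.

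No gene listed for antibody-secreting cells passed the test. Of 18 listed plasma cell genes 11 were tested and 0 called by edgeR, with a median log2 fold change of -0.11. Jchain, which links IgA and IgM into polymers, had a log2 fold change of -0.21 ± 0.10 (SE, edgeR adjusted p = 0.342), and Slamf7, a surface receptor of plasma cells, -0.76 ± 0.27 (0.168). The plasma cell genes summed to 0.130% ± 0.00966 of non-ribosomal counts in WT and 0.122% ± 0.00476 in dKO (SD, n = 3). That sum was uneven: Jchain held 1900, Xbp1 643 and Herpud1 484 counts over all libraries. Sdc1 held 54, Derl3 20, Mzb1 14, Fkbp11 12 and Tnfrsf17 1. Of 17 listed B cell genes only Cd22 and Cd37 were tested and 0 were called (edgeR adjusted p = 0.416 and 0.832). The B cell genes summed to 0.0132% in WT and 0.0158% in dKO. Over all libraries Cd22 held 129 counts, Cd37 97, Ebf1 74, Cd79b 57, Ms4a1 35 and Cd79a 21, while Pax5 held 1 and Fcer2a 0. Of 5 tested genes of V(D)J joining, class switching and DNA end joining, 0 were called by edgeR (Prkdc 0.15 ± 0.22 and Xrcc5 0.30 ± 0.31, adjusted p = 0.847 and 0.767), and Rag2, part of the recombinase that cuts the segments, was at 0. Of 7 tested receptors for antibodies, Fcgr3 was higher (0.44 ± 0.12 with SE, edgeR adjusted p = 0.0348).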

How the data were processed

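Total RNA of sorted cells was sequenced in 6 libraries. The authors deposited unnormalized counts for each Ensembl gene. STAR 2.7.0d, DESeq2 1.22.2 and GRCm38 are named in, and given here per, the submitters' processing notes. Per the labels' protocols the kit was a stranded total RNA kit; how reads were counted, and with which strand setting, is not given in the sources used here. Library totals were 4569880 to 6146226 counts.

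After filterByExpr (at least 10 counts by its rule, and 15 in all) and TMM scaling, all remaining rows were tested, two-sided, with edgeR 4.0.16 (limma 3.58.1, R 4.3.3), the group as the only term and a Benjamini-Hochberg threshold of 0.05. The SE of a log2 fold change is that change over the root of its F value. Usage shares have Clopper-Pearson 95% intervals. The steps were tested on simulated data. The members and gene lists were chosen with earlier results of these data known. Named are the called segments, the 8 with the most counts and any with 10% of a library's Ighv counts, and from each other list up to 4 called genes or else the 2 with the smallest p. Other names, given where a count turned on them, were chosen after their values were seen. Alternatives were DESeq2 1.42.0, limma-voom, other filters, scalings and count minimums, the replicate block and each library left out. Sequences are from GENCODE M21 transcripts.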

Additional observations from a re-analysis of the deposited data

How the results depend on the processing

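Without a low-count filter, 7 segments were higher and 14 lower, against 3 and 7. The calls this added were of segments with all or nearly all of their counts in 1 group. Leaving out each library in turn gave 3 to 5 higher and 3 to 9 lower, with 5 higher without WT replicate 3 or dKO replicate 2 and 3 lower without WT replicate 1. DESeq2 called 4 higher and 7 lower, and 3 of its lower segments were among the 7. With the replicate number as a block, 3 were higher and 7 lower, and all 3 and 7 were the same genes; libraries with the same number did not deviate together (correlations of 0.026, 0.013 and 0.029, though each library correlated best with its own number), and no pairing is labelled. The log2 ratio of the total Ighv share was -0.31, -0.40 to -0.22 with a library left out, and reversed to 0.89 over all counts of the library, which include the ribosomal RNA row; without dKO replicate 3 that ratio was -0.15 (added after seeing the data). The effective number of segments was 1.67 higher in dKO, 1.12 to 2.22 with a library left out, 0.36 for families and -2.46 for rarefied richness. The median usage shared between groups was 61.9%, 61.3% to 63.0% with a library left out and 84.7% over families; all alternatives for this measure, and the fold bounds with a library left out, were added after seeing the data. The log2 fold change of Ighv3-6, which was not called, ran from -0.50 to 0.033 with a library left out and changed sign without WT replicate 3. Of the alternative fits of single segments, 152 kept direction and side of the threshold and 14 lost the call. Ighv7-3 had no fitted value with the ribosomal RNA row left out, and that loss is in neither number. The cause was not tested. Depth limits the segments under 20 counts: with 416 to 1940 Ighv counts a library, their absence from 1 library cannot be told from a low usage.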
